A study of Mus musculus with 8 samples.

Results

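The 10 genes described here are 8 Toll-like receptors of the mouse (Tlr1, Tlr2, Tlr3, Tlr4, Tlr5, Tlr6, Tlr7 and Tlr13), the co-receptor gene Cd14 and the adaptor gene Myd88. They were chosen by gene symbol from a deposited table of 34745 genes, each symbol matched 1 row, and all 10 passed the filter on low counts that left 15684 genes for testing. RNA of skin lesions was sequenced from 4 NcstnΔKC libraries and 4 normal libraries, all from mice killed at 16 weeks of age and labelled male. The NcstnΔKC mice were Ncstn flx/flx; Krt14 CreER+/- and were given tamoxifen by gavage from 8 weeks of age, at 20 mg per kg body weight daily for 5 days and every 10 days after that. For the normal mice the protocol gives the identical genotype with corn oil alone, whereas their genotype label reads wildtype. Ncstn encodes nicastrin, a subunit of the protease γ-secretase. The Krt14 promoter drives the recombinase in basal keratinocytes, so the deletion was not directed at leukocytes or dermal cells. The labels do not say whether a library is 1 mouse or a pool, and p-values therefore measure the spread between these libraries.

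Toll-like receptors are transmembrane proteins that bind conserved microbial molecules, and some also bind molecules released by damaged tissue. Receptors at the cell surface sense lipids and proteins of bacteria, and receptors in endosomes sense nucleic acids. Nearly all of them signal through the adaptor MyD88, which recruits IRAK kinases and TRAF6 and leads to NF-κB and MAP kinase activation. Tlr3 is the exception, and signals through the adaptor TRIF. In skin they are carried by macrophages, dendritic cells, neutrophils and mast cells, and several of them also by keratinocytes, fibroblasts and endothelium.

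Total counts ran from 11881506 to 12893174 in the NcstnΔKC libraries and from 5835422 to 8663753 in the normal libraries, so depth moved with the groups. Ncstn itself had 50.2 to 66.8 CPM in NcstnΔKC libraries and 58.4 to 61.9 CPM in normal libraries, which differ by -0.07 ± 0.12 on the log2 scale (± SE here and after each log2 value below, adjusted p = 0.663). These counts cover the whole gene in whole skin and do not separate the floxed exons, and the libraries are named by their label. Although every mouse was labelled male, replicates 3 and 4 of each group had 22304 to 37109 reads of Xist, an RNA of female cells, with at most 3 Y-linked reads. Replicates 1 and 2 had 4 to 9 Xist reads beside 886 to 4453 from Y-linked genes. The share of mitochondrial reads was 0.680% to 0.939% in NcstnΔKC libraries and 3.42% to 5.43% in normal libraries, and its part in the results was not tested. CPM here means counts scaled to a common library size with TMM factors, and a gene is called higher or lower where the adjusted p of edgeR's quasi-likelihood test is under 0.05.

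Of the 10 genes, 6 were higher in NcstnΔKC skin, 1 was lower and 3 did not pass the threshold. The 6 were Tlr13, Cd14, Tlr4, Tlr2, Tlr1 and Myd88, and Tlr5 was the gene that was lower. Over all tested genes 21.4% were called higher and 22.7% lower, 44.1% in all. The median log2 fold change of the 10 genes was 1.55, against -0.02 over all tested genes. In 5 of the 6 higher genes (all but Tlr1) and in Tlr5 the groups did not overlap, which held for 20.9% of tested genes upward and 20.7% downward. NcstnΔKC replicate 1 had the lowest level of its group in 9 of the 10 genes, Cd14 being the exception. Because the tissue is bulk skin, more cells of a type and more RNA per cell cannot be told apart.

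**Figure D1:**
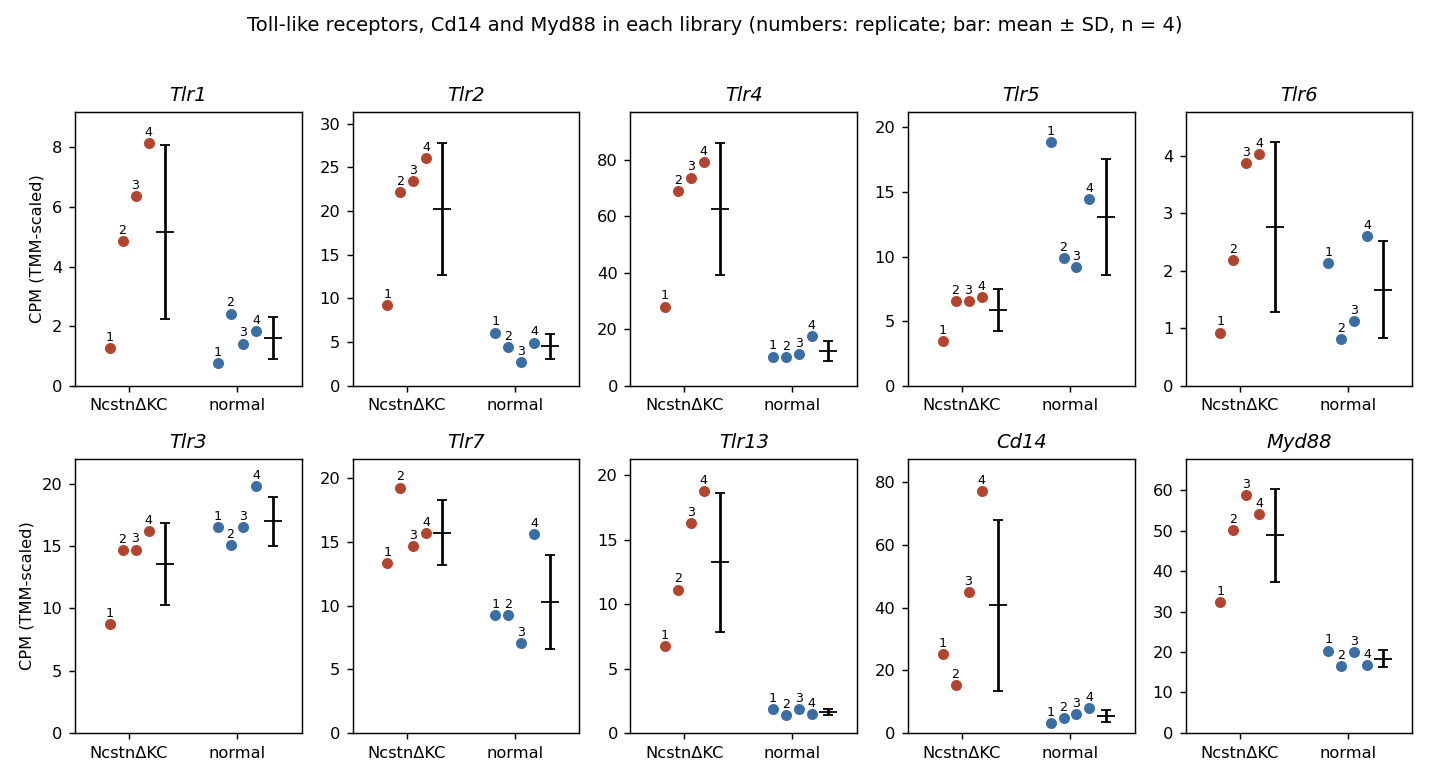
Level of each gene in TMM-scaled CPM (vertical axis, linear from 0) in NcstnΔKC and normal libraries, with points for libraries numbered by replicate and bars for the mean ± SD of 4. Tlr2, Tlr4, Tlr13, Cd14 and Myd88 lie above all normal points in every NcstnΔKC library, Tlr5 lies below them, and replicate 1 is the lowest NcstnΔKC point in all panels but Cd14.

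Tlr2 pairs with Tlr1 or Tlr6 at the cell surface to bind bacterial lipopeptides. Tlr2 (ENSMUSG00000027995, mm10 chromosome 3, 83836272 to 83841767) had 9.23, 22.1, 23.4 and 26.1 CPM in NcstnΔKC replicates 1 to 4, against 6.07, 4.44, 2.68 and 4.95 CPM in normal replicates 1 to 4. Every NcstnΔKC library lay above every normal library, and replicate 1 was the closest to them. NcstnΔKC skin averaged 20.2 ± 7.50 CPM and normal skin 4.54 ± 1.41 CPM (SD, n = 4 each). The log2 fold change was 2.16 with an SE of 0.37 (adjusted p = 0.00205), or 4.45-fold.

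The stretch just upstream of the annotated Tlr2 gene is shown because it holds a match to the NF-κB consensus, the factor downstream of these receptors. Stretches here come from the RefSeq promoter table (GRCm38.p6), run 5′ to 3′ on the gene's strand, cover up to 250 bases before the RefSeq start, and are cut where an exon of the gene begins. Capitals mark motif matches, and Tlr2 is at chr3:83841768-83841858 on the minus strand.
Tlr2: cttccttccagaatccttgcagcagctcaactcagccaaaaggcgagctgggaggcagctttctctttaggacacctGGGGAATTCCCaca
The capitals in Tlr2 are overlapping matches on both strands. The same 91-base window held an NF-κB match in 2.26% of 32536 promoters.

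Tlr1 and Tlr6 are neighbouring genes whose products are the partners of Tlr2. Tlr1 (ENSMUSG00000044827, chromosome 5, 64924679 to 64933563) had 1.26, 4.85, 6.36 and 8.13 CPM in NcstnΔKC replicates 1 to 4, against 0.759, 2.42, 1.41 and 1.82 CPM in normal replicates 1 to 4. Its groups overlapped, since NcstnΔKC replicate 1 lay below 3 of the normal libraries. Its log2 fold change was 1.70 ± 0.56 (adjusted p = 0.0360). This call rested on 15 to 121 reads per NcstnΔKC library and 5 to 14 per normal library. It ended with limma-voom (1.53, adjusted p = 0.114) and without any 1 of NcstnΔKC replicates 2, 3 and 4 or normal replicates 1, 3 and 4 (log2 fold change 1.40 to 1.85). With scaling by basal keratinocyte genes, where the median over all tested genes was -1.08, it was 0.56 (adjusted p = 0.373). In the libraries without Xist alone it was 0.98 (adjusted p = 0.533).

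Tlr6 (ENSMUSG00000051498, chromosome 5, 64952031 to 64960097) had 0.923, 2.19, 3.87 and 4.03 CPM in NcstnΔKC replicates 1 to 4, against 2.13, 0.806, 1.13 and 2.61 CPM in normal replicates 1 to 4. The groups overlapped, and the log2 fold change of 0.70 ± 0.52 did not pass (adjusted p = 0.300, 95% interval -0.48 to 1.88). Of the 31-base stretches of annotated Tlr1 transcripts 20.0% also occur in another gene, and of those of Tlr6 16.6%, and 607 stretches are common to the pair. The longest stretch identical in both is 229 bases of coding sequence, at chr5:64925537-64925765 in Tlr1 and chr5:64953828-64954056 in Tlr6 (GENCODE M21, minus strand). It is shown because a read from within it cannot be assigned to either gene.
Tlr1 and Tlr6: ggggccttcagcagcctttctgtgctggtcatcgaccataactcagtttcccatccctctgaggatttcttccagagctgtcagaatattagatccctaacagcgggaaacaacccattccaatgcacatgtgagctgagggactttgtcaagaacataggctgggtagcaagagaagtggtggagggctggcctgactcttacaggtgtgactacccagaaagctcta
Summed as 1 gene, Tlr1 and Tlr6 had 2.18, 7.04, 10.2 and 12.2 CPM in NcstnΔKC replicates 1 to 4, against 2.89, 3.23, 2.54 and 4.43 CPM in normal replicates 1 to 4. The sum had a log2 fold change of 1.27 ± 0.48 and did not pass (adjusted p = 0.0563). It takes in Tlr6, which was not called, and how shared reads were counted is not stated. It therefore cannot show whether such reads made the call of Tlr1.

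Tlr4 is the receptor for bacterial lipopolysaccharide, which Cd14 captures and hands over. Tlr4 (ENSMUSG00000039005, chromosome 4, 66827584 to 66930284) had 28.0, 68.9, 73.7 and 79.1 CPM in NcstnΔKC replicates 1 to 4, against 10.3, 10.3, 11.2 and 17.7 CPM in normal replicates 1 to 4. The groups did not overlap, and 3 NcstnΔKC libraries lay close together with replicate 1 below them. NcstnΔKC skin averaged 62.4 ± 23.3 CPM and normal skin 12.4 ± 3.59 CPM (SD, n = 4 each). This gave a log2 fold change of 2.33 with an SE of 0.34 (adjusted p = 0.00106), or 5.03-fold.

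Cd14 (ENSMUSG00000051439, chromosome 18, 36725074 to 36726736) encodes a lipid-anchored protein of monocytes and macrophages that presents lipopolysaccharide to Tlr4 and lipopeptides to Tlr2. It had 25.3, 15.4, 45.0 and 77.2 CPM in NcstnΔKC replicates 1 to 4, against 3.19, 4.84, 5.93 and 7.82 CPM in normal replicates 1 to 4. The groups did not overlap, and NcstnΔKC replicate 4 was the highest and replicate 2 the lowest of its group. NcstnΔKC skin averaged 40.7 ± 27.3 CPM and normal skin 5.44 ± 1.94 CPM (SD, n = 4 each). On the log2 scale the difference was 2.89 with an SE of 0.52 (adjusted p = 0.00256), or 7.42-fold. Ly96, which encodes MD-2, the subunit of the Tlr4 complex that binds lipopolysaccharide, had 5.75 ± 2.39 CPM in NcstnΔKC skin and 4.70 ± 1.28 CPM in normal skin. Its log2 fold change of 0.28 did not pass (adjusted p = 0.551, 95% interval -0.53 to 1.10).

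Tlr5 binds bacterial flagellin. Tlr5 (ENSMUSG00000079164, chromosome 1, 182954788 to 182976044) had 3.44, 6.56, 6.57 and 6.85 CPM in NcstnΔKC replicates 1 to 4, against 18.8, 9.88, 9.18 and 14.5 CPM in normal replicates 1 to 4. All NcstnΔKC libraries lay below all normal libraries. The log2 fold change was -1.16 ± 0.31 (adjusted p = 0.0144), or 0.448-fold. This call ended with scaling by total counts (-0.85, adjusted p = 0.0756), with the authors' FPKM (-0.37 on the log2(FPKM + 1) scale, adjusted p = 0.0994), and without normal replicate 1 (-0.85) or normal replicate 4 (-1.05). It also ended with the replicate number as a block (-1.13, adjusted p = 0.0536) and in the libraries without Xist alone (-1.52, adjusted p = 0.171).

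Tlr13, a receptor of mice that is absent from humans, recognises bacterial ribosomal RNA in endosomes. Tlr13 (ENSMUSG00000033777, chromosome X, 106143204 to 106160493) had 6.71, 11.1, 16.3 and 18.8 CPM in NcstnΔKC replicates 1 to 4, against 1.82, 1.41, 1.84 and 1.43 CPM in normal replicates 1 to 4. The groups were far apart, and the normal libraries were nearly equal. NcstnΔKC skin averaged 13.2 ± 5.40 CPM and normal skin 1.63 ± 0.235 CPM (SD, n = 4 each). The log2 fold change of 3.01 ± 0.36 (adjusted p = 4.10e-04), or 8.08-fold, was the largest of the 10 in this fit. Cd14 exceeded it without NcstnΔKC replicate 2 (3.17 for Cd14 and 3.10 for Tlr13) and without normal replicate 4 (3.19 and 3.01), and on the log2(FPKM + 1) scale Cd14, Tlr4 and Tlr2 all exceeded it. On that scale the added 1 shrinks changes at low FPKM, and Tlr13 averaged 0.346 FPKM in normal skin. Normal libraries held 7 to 13 reads of it and NcstnΔKC libraries 80 to 280.

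Its upstream stretch, at chrX:106143025-106143203 on the plus strand, is shown because it holds a purine-rich element. The capitals mark GAGGAA, the core bound by PU.1, a transcription factor of myeloid cells.
Tlr13: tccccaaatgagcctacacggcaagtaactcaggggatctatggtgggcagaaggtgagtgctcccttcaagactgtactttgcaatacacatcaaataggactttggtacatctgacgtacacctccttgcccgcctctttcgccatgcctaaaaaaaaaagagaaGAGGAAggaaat
GAGGAA on either strand was present in the same 179-base window of 17.2% of promoters.

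Tlr7, which binds single-stranded RNA in endosomes, is also X-linked. Tlr7 (ENSMUSG00000044583, chromosome X, 167304929 to 167330558) had 13.3, 19.3, 14.7 and 15.7 CPM in NcstnΔKC replicates 1 to 4, against 9.26, 9.27, 7.06 and 15.6 CPM in normal replicates 1 to 4. The groups overlapped through normal replicate 4. The log2 fold change of 0.61 ± 0.26 did not pass (adjusted p = 0.0821), although it did without normal replicate 4 (0.95, adjusted p = 0.0135). It passed with scaling by total counts too (0.92, adjusted p = 0.0259).

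Tlr3 binds double-stranded RNA in endosomes. Tlr3 (ENSMUSG00000031639, chromosome 8, 45395665 to 45410608) had 8.73, 14.7, 14.7 and 16.2 CPM in NcstnΔKC replicates 1 to 4, against 16.6, 15.1, 16.5 and 19.8 CPM in normal replicates 1 to 4. The groups overlapped, and the log2 fold change was -0.32 ± 0.21 (adjusted p = 0.246, 95% interval -0.81 to 0.16). It was 0.01 with scaling by total counts, and -1.41 with scaling by basal keratinocyte genes, where Tlr3 was called lower (adjusted p = 2.24e-04). That scaling called 67.2% of all tested genes lower, with a median log2 fold change of -1.08. An antisense gene in GENCODE M21 shares 6.10% of its 31-base stretches, and the strand setting of the counts was not stated.

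Myd88 is the adaptor that joins the activated receptors to the IRAK kinases. Myd88 (ENSMUSG00000032508, chromosome 9, 119335934 to 119341411) had 32.4, 50.2, 58.8 and 54.1 CPM in NcstnΔKC replicates 1 to 4, against 20.3, 16.5, 20.0 and 16.7 CPM in normal replicates 1 to 4. All NcstnΔKC libraries lay above all normal libraries. NcstnΔKC skin averaged 48.9 ± 11.6 CPM and normal skin 18.4 ± 2.08 CPM (SD, n = 4 each). Its log2 fold change was 1.41 with an SE of 0.20 (adjusted p = 9.17e-04), or 2.66-fold. With scaling by basal keratinocyte genes, where the median over all tested genes was -1.08, it was 0.33 and the call ended (adjusted p = 0.11). Acaa1a, a gene on the opposite strand, shares 8.93% of the 31-base stretches of Myd88, and had 19.2 ± 2.05 CPM in NcstnΔKC skin and 29.7 ± 6.01 CPM in normal skin.

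The stretch upstream of the RefSeq start of Myd88, which lies inside the annotated span of the gene at chr9:119340042-119340268 on the minus strand, is shown because it holds a pair of GAAA repeats 2 bases apart, an element bound by interferon regulatory factors, in capitals.
Myd88: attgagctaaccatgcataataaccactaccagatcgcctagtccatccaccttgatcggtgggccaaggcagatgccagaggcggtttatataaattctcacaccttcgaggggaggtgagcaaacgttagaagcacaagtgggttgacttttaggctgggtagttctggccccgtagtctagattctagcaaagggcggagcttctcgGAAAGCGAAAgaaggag
This element, on either strand, was present in the same window of 2.70% of promoters. TGANTCA, bound by AP-1, was searched as well and matched in none of the stretches of the 6 genes with one. Among the stretches not printed, Tlr1 held 1 GAGGAA, Tlr6, which was not called, held 2 matches of the interferon regulatory factor element, and Tlr5 held none of the 4 motifs. A match is a description of the letters and not of binding.

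**Figure D2:**
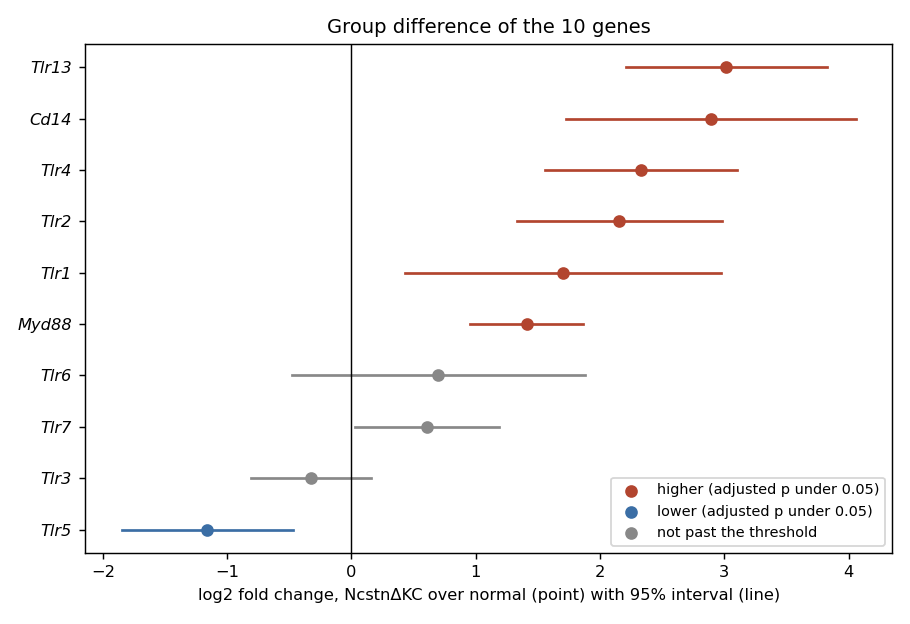
Log2 fold change of NcstnΔKC over normal skin for the 10 genes (horizontal axis, points) with its 95% interval (lines) from edgeR's quasi-likelihood fit. Tlr13 at 3.01 and Cd14 at 2.89 lie farthest to the right, Tlr5 at -1.16 lies to the left, and the intervals of Tlr6 and Tlr3 include 0.

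Levels of different genes were compared per length, in the authors' FPKM. In NcstnΔKC skin Cd14 averaged 29.2 ± 20.5 FPKM, Myd88 11.9 ± 3.36, Tlr4 10.5 ± 4.28, Tlr2 7.62 ± 3.09, Tlr13 3.59 ± 1.58 and Tlr3 2.68 ± 0.781 FPKM (SD, n = 4), followed by Tlr7, Tlr1, Tlr6 and Tlr5 at 1.53 to 0.620 FPKM. In normal skin Myd88 averaged 3.54 ± 0.541 FPKM, Cd14 3.05 ± 1.09, Tlr3 2.65 ± 0.423, Tlr4 1.63 ± 0.514, Tlr2 1.36 ± 0.515 and Tlr5 1.11 ± 0.469 FPKM (SD, n = 4), followed by Tlr7, Tlr6, Tlr13 and Tlr1 at 0.803 to 0.228 FPKM. Neighbours in either order overlapped in their ranges across libraries. Within libraries the order was steadier: Tlr13 ranked 5 of the 10 in every NcstnΔKC library and 8 or 9 in normal libraries, and Tlr3 ranked 6 in every NcstnΔKC library and 2 or 3 in normal libraries.

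The make-up of the receptor transcripts was set out as the share of each receptor in the summed FPKM of the 8 receptors, a measure from which library scaling cancels out. Other Toll-like receptors are not in the sum, so the shares hold among the 8 alone. Of those left out, Tlr8 averaged 4.41 ± 2.75 FPKM in NcstnΔKC skin and 1.10 ± 0.138 FPKM in normal skin. Tlr9 averaged 1.63 ± 0.958 and 2.08 ± 0.667 FPKM in NcstnΔKC and normal skin (SD, n = 4 each). That sum was 12.3, 30.7, 33.1 and 36.9 FPKM in NcstnΔKC replicates 1 to 4, against 9.83, 7.05, 6.42 and 10.7 FPKM in normal replicates 1 to 4. Tlr4 took 36.7% ± 2.06 in NcstnΔKC libraries and 19.2% ± 3.19 in normal libraries (SD, n = 4 each). Tlr2 took 26.7% ± 1.20 and 15.8% ± 3.84 in NcstnΔKC and normal libraries, and Tlr13 took 12.7% ± 1.77 and 4.23% ± 1.10. Tlr3 took 9.99% ± 1.70 in NcstnΔKC libraries and 31.8% ± 3.64 in normal libraries, and Tlr5 took 2.27% ± 0.274 and 12.8% ± 3.15. A share can fall when the others rise, and Tlr3 itself averaged 2.68 FPKM in NcstnΔKC skin and 2.65 FPKM in normal skin. The shares of the groups did not overlap in Tlr4, Tlr2, Tlr13, Tlr3 and Tlr5, and overlapped in Tlr1, Tlr6 and Tlr7. In NcstnΔKC replicate 1 Tlr7 took 9.46%, against 4.27% to 6.34% in the other NcstnΔKC libraries, Tlr3 took 12.5%, against 8.86% to 9.74%, and Tlr1 took 1.67%, against 2.99% to 4.13%. Tlr4 took 33.8% of the receptor sum in that library, against 36.6% to 38.7% in the other NcstnΔKC libraries.

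**Figure D3:**
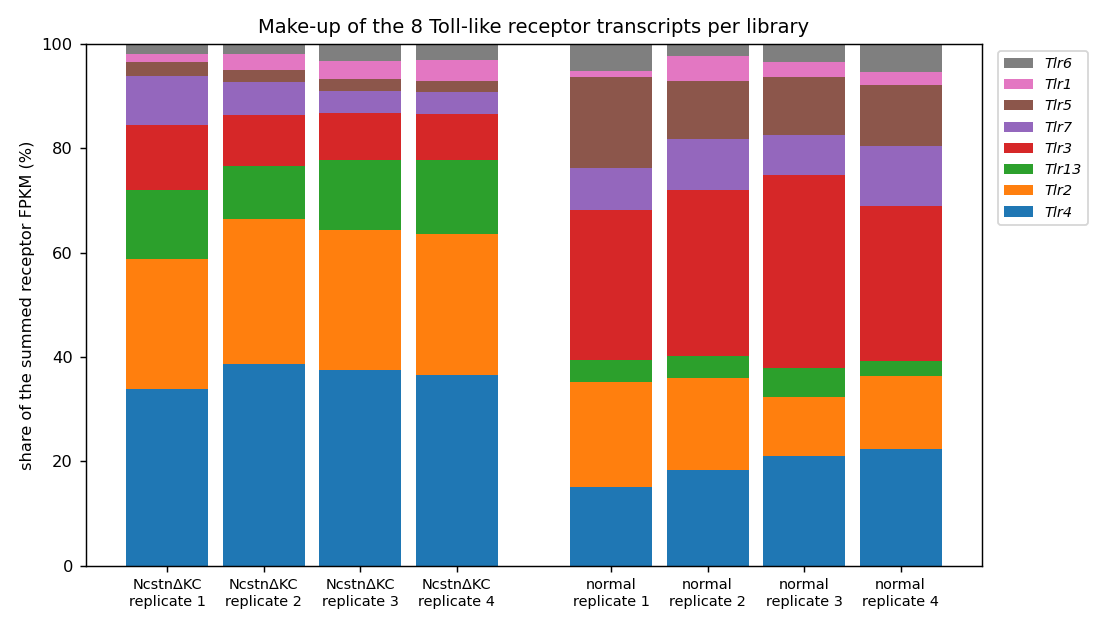
Stacked bars of the share (%, vertical axis from 0 to 100) of each of the 8 receptors in their summed FPKM, with NcstnΔKC libraries on the left and normal libraries on the right. Tlr4, Tlr2 and Tlr13 fill more of every NcstnΔKC bar, and Tlr3 and Tlr5 fill more of every normal bar.

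The replicates with Xist counts (3 and 4) and those without (1 and 2) gave the same direction for each of the 7 called genes. In the libraries with Xist alone and in those without it alone, the log2 fold changes were 3.46 and 2.45 for Tlr13, 2.44 and 2.24 for Tlr4, 3.18 and 2.35 for Cd14, 1.66 and 1.17 for Myd88, and -0.78 and -1.52 for Tlr5. The difference of the group effect between these sets passed for 0 of the 10 genes (edgeR interaction test, adjusted p 0.838 to 0.974, none under 0.05 unadjusted) and for 0 of all 15684 tested genes, of which 917 (5.85%) had an unadjusted p under 0.05. In the libraries without Xist alone none of the 10 genes passed (adjusted p from 0.0857 for Cd14). Within groups, X-linked Tlr7 differed by 0.08 ± 0.27 and X-linked Tlr13 by 0.62 ± 0.29 on the log2 scale between libraries with and without Xist, neither past the threshold (adjusted p = 0.943 and 0.682). Cd14 differed by 1.25 ± 0.30 (unadjusted p = 0.00309, adjusted p = 0.652). Xist status was called in 0.0319% of all tested genes and had an unadjusted p under 0.05 in 7.35%.

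The rest of the signalling chain was read from 69 genes in 10 lists, of which 64 were tested, 24 were higher and 4 were lower. Over all tested genes 21.4% were called higher and 22.7% lower, and the counts of each list here and below stand beside these shares. The counts called higher among the kinases and in the TRIF arm lay near the share over all genes. Among the other Toll-like receptors, Tlr11, which senses profilin of protozoa, fell to 0.307 ± 0.211 CPM in NcstnΔKC skin, against 4.18 ± 0.768 CPM in normal skin (log2 fold change -3.68 ± 0.54, adjusted p = 0.00101). Tlr8, another endosomal RNA receptor and the X-linked neighbour of Tlr7, had 3.02, 41.3, 33.5 and 42.1 CPM in NcstnΔKC replicates 1 to 4, against 7.14, 10.9, 10.9 and 10.0 CPM in normal replicates 1 to 4. Its groups overlapped through NcstnΔKC replicate 1 alone, and its log2 fold change of 1.63 ± 0.63 did not pass (adjusted p = 0.0633). Tlr9, a receptor for DNA, had a log2 fold change of -0.71 ± 0.49 (adjusted p = 0.270). Of the co-receptors, Cd180, an inhibitory homologue of Tlr4 on B cells and myeloid cells, was lower, with 0.698 ± 0.249 CPM in NcstnΔKC skin and 6.32 ± 0.592 CPM in normal skin (-3.14 ± 0.31, adjusted p = 1.95e-04). Cd36, Lbp and Ly86 did not pass.

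Of the other adaptors, Sarm1, a negative regulator and NAD hydrolase, was lower (-0.79 ± 0.28, adjusted p = 0.0461), and Ticam1 (0.30), Ticam2 (0.45) and Tirap (-0.60) did not pass. Below Myd88, Traf6 (0.86 ± 0.26), Ube2n (0.65 ± 0.16) and the IκB kinase gene Chuk (0.86 ± 0.12) were higher and Tab2 (-0.83 ± 0.15) was lower, while the other 8 of 12 did not pass, among them Map3k7 (0.39, adjusted p = 0.0557) and the receptor-proximal kinases Irak1 (0.08), Irak2 (0.17) and Irak4 (0.16). In the TRIF arm Traf3 (1.45 ± 0.14) and the kinase gene Tbk1 (0.96 ± 0.12) were higher, and the other 5 of 7 did not pass, among them Irf5 (0.35) and Irf3 (0.26). Among negative regulators the deubiquitinase gene Tnfaip3 (1.38 ± 0.23), Tollip (0.84 ± 0.18) and Nfkbia (0.88 ± 0.30) were higher, and the other 4 of 7 did not pass, among them Socs1 (2.12 ± 0.77, adjusted p = 0.0508). Slc15a4, an endolysosomal transporter needed by Tlr7 and Tlr9, was higher (1.06 ± 0.20), and the receptor chaperones Unc93b1 (0.51), Hsp90b1 (-0.38) and Cnpy3 (-0.06) did not pass.

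Of the 6 IL-1 family receptors that also use Myd88, 4 were higher, namely Il18rap (2.92 ± 0.35), the IL-1 receptor gene Il1r1 (1.17 ± 0.16), Il1rl1, the IL-33 receptor (3.17 ± 0.67), and Il1rl2 (0.57 ± 0.19). Of 6 endogenous ligands reported for these receptors 4 were higher, with S100a8 and S100a9, which neutrophils carry in abundance, at 6.09 ± 0.64 and 4.55 ± 0.69 Tnc, tenascin C, at 4.15 ± 0.89 and Bgn, biglycan, at 0.61 ± 0.22 on the log2 scale. Of 14 inflammatory target genes 10 were tested and 7 were higher, including Ptgs2 (3.35 ± 0.51), Cxcl2 (6.03 ± 1.06), Il6 (4.48 ± 0.83), Ccl3 (5.26 ± 0.99) and Il1b (3.39 ± 0.82). Tnf had 4.10 ± 2.27 CPM in NcstnΔKC skin and 3.39 ± 0.747 CPM in normal skin and did not pass (0.28, adjusted p = 0.611). Many of these genes respond to other receptors as well.

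**Figure D4:**
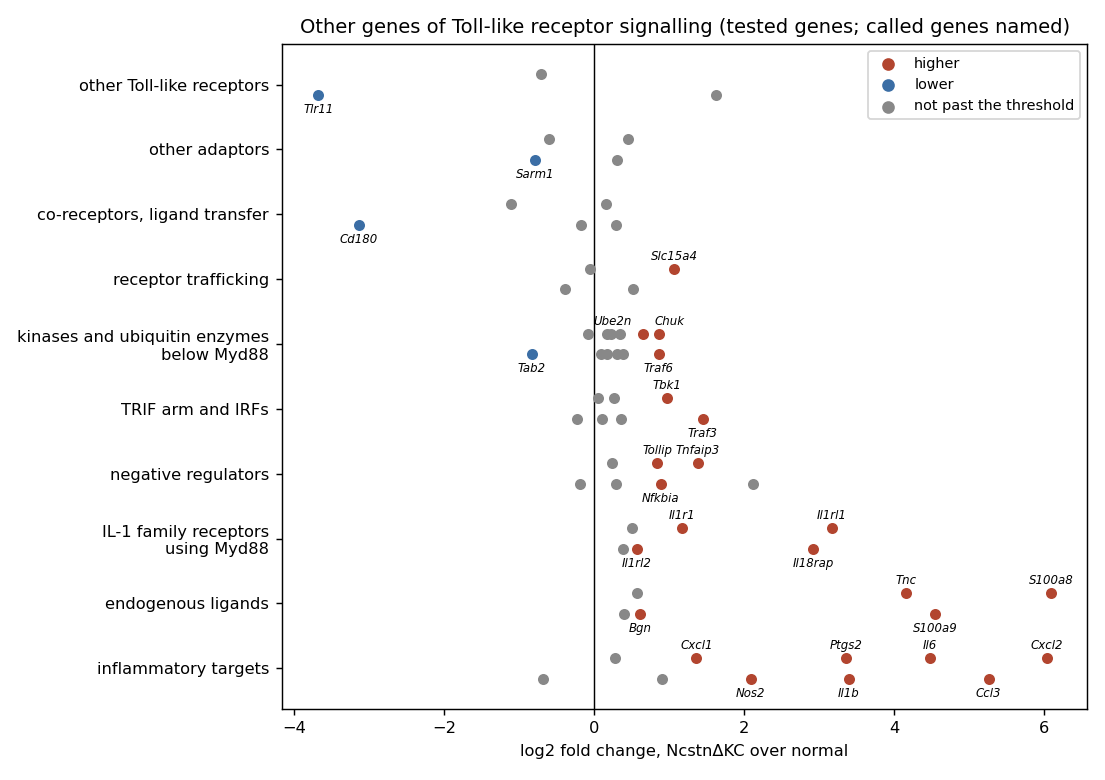
Log2 fold change of NcstnΔKC over normal skin (horizontal axis) for the tested genes of 10 signalling lists, 1 point per gene, with called genes named and coloured. Red points crowd the lists of endogenous ligands and inflammatory targets, up to 6.09 for S100a8, and Tlr11 at -3.68 and Cd180 at -3.14 stand alone on the left.

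Marker lists of the cells that carry these receptors differed in how they moved. Their counts stand beside 21.4% of all tested genes called higher and 22.7% called lower. The summed CPM of 8 neutrophil markers ran from 34.0 to 218.8 in NcstnΔKC libraries and from 2.89 to 8.60 in normal libraries, and 6 of the 6 tested were higher. Of these, Cxcr2, Mmp8, Ngp, Ltf and Retnlg had 0 to 5 reads per normal library. They passed the filter only through the NcstnΔKC libraries, so that count is not independent of the difference. Ly6g had 0 reads in all normal libraries and 0 to 15 in NcstnΔKC libraries. The sum of 10 macrophage markers ran from 555 to 3665 in NcstnΔKC libraries and from 610 to 1030 in normal libraries, and 5 of 10 were higher. Mast cell markers ran from 94.99 to 494 and from 72.3 to 143 CPM in NcstnΔKC and normal libraries, with 4 of 6 higher, and 6 leukocyte markers from 324 to 1011 and from 256 to 483 CPM, with 3 of 6 higher. The macrophage, mast cell and leukocyte sums overlapped between groups. Monocyte markers ran from 21.7 to 41.9 CPM in NcstnΔKC libraries and from 27.4 to 44.7 CPM in normal libraries, and 0 of 3 were called by edgeR at the adjusted threshold. Their directions differed. The log2 fold change was 2.12 ± 0.82 for Ly6c2 (adjusted p = 0.0620) and 0.77 ± 0.34 for Plac8 (adjusted p = 0.0916). It was -0.54 ± 0.22 for Ccr2 (adjusted p = 0.0768), the marker with the most CPM in the sum. Of the dendritic and Langerhans cell markers 3 of 5 tested were lower. Of the fibroblast markers 1 of 5 was lower (Dcn), and of the endothelial markers 1 of 5 was higher (Vwf) and 1 lower (Kdr). The fibroblast sum was 24683 and 25741 CPM in normal replicates 1 and 2, without Xist. It was 2924 and 3481 CPM in normal replicates 3 and 4, with Xist, and 2887 to 7214 CPM in NcstnΔKC libraries. Basal keratinocyte markers ran from 10579 to 14682 CPM in NcstnΔKC libraries and from 5571 to 7051 CPM in normal libraries, with 7 of 8 higher. Skeletal muscle markers ran from 367 to 4728 CPM in NcstnΔKC libraries and from 5118 to 53483 CPM in normal libraries, with 5 of 5 lower. Defining macrophage, mast and leukocyte markers were above 0 in both groups. The part of these cell types in the receptor results was not tested.

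In NcstnΔKC replicate 1 the leukocyte sum was 324 CPM, within the normal range, the macrophage sum was 555 CPM, below it, and the neutrophil sum was 34.0 CPM, above it. In that library Tlr2 (9.23 CPM), Tlr4 (28.0), Tlr13 (6.71), Cd14 (25.3) and Myd88 (32.4) were above every normal library. Set as a percentage of the leukocyte sum, Tlr4 had 7.83 to 10.6 in NcstnΔKC libraries and 2.98 to 4.02 in normal libraries. By the same measure Tlr13 had 1.71 to 2.07 and 0.296 to 0.551, Tlr2 2.58 to 3.41 and 0.766 to 1.75, and Cd14 2.37 to 7.79 and 0.920 to 1.89, in NcstnΔKC and normal libraries. These 4 were higher without overlap, against 1.91% of all tested genes by the same ratio, and Tlr3 and Tlr5 were lower without overlap, against 25.7%. The other 4 overlapped, Myd88 among them (5.36 to 9.99 in NcstnΔKC libraries and 3.45 to 6.46 in normal libraries). These ratios depend on which markers make up the sum. In the leukocyte list Cd53 (7.19-fold), Laptm5 (2.67-fold) and Coro1a (2.52-fold) were higher, and Ptprc (1.35-fold), Lcp1 (1.48-fold) and Itgb2 (1.66-fold) were not called. Cd53 rose more than Tlr4 (5.03-fold) and Tlr2 (4.45-fold), and less than Tlr13 and Cd14. Over the macrophage sum Tlr4 and Tlr13 were higher without overlap, against 0.944% of tested genes, and Tlr3 and Tlr5 lower, against 20.1%, and 6 overlapped, Cd14, Tlr2 and Myd88 among them. Over the monocyte sum Tlr2, Tlr4, Tlr13, Cd14 and Myd88 were higher without overlap, against 11.8% of tested genes, and Tlr5 was lower, against 10.1%. Ccr2 made up the largest part of that sum, and its log2 fold change pointed down while those of Ly6c2 and Plac8 pointed up. No ratio was taken over the neutrophil sum, so these ratios do not cover neutrophils. The mean of the neutrophil sum was 22.4 times as high in NcstnΔKC as in normal libraries, where most of its markers had few reads. This ratio is above the fold change of each of the 10 genes (at most 8.08, for Tlr13). The part of neutrophils in their levels was not tested.

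**Figure D5:**
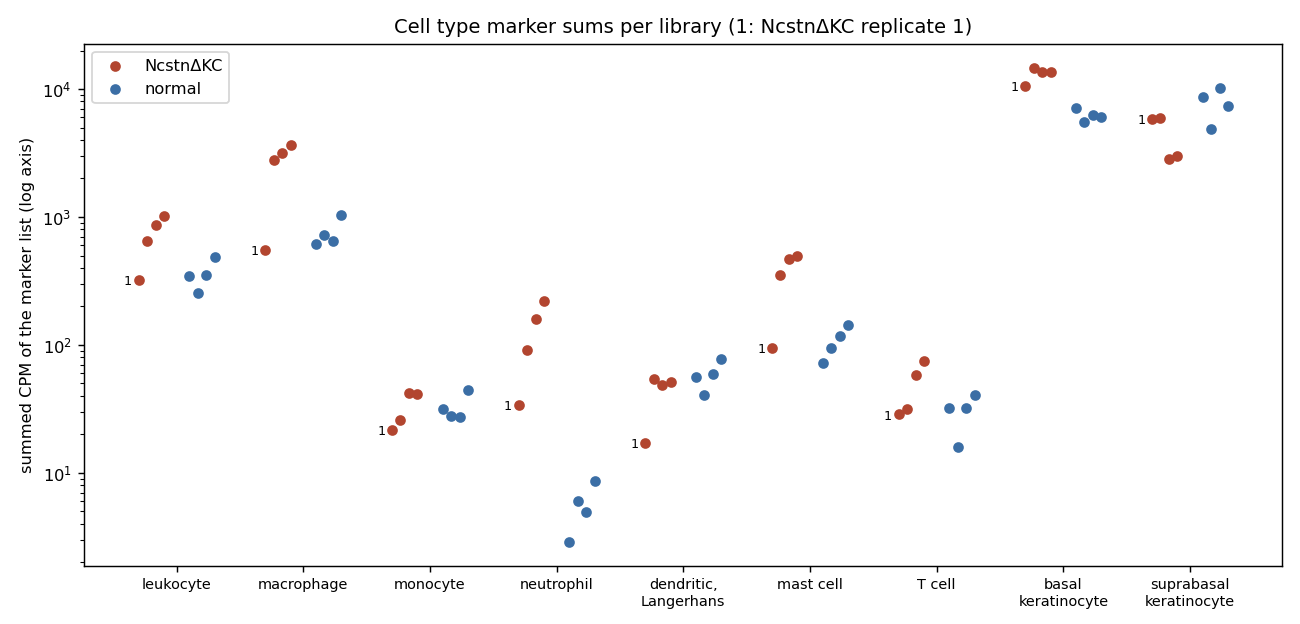
Summed CPM of each cell type marker list (vertical log axis) in NcstnΔKC libraries (red, left of each pair) and normal libraries (blue), 1 point per library, with NcstnΔKC replicate 1 marked. The neutrophil and basal keratinocyte sums do not overlap between groups, and replicate 1 lies among or below the normal points for leukocytes, macrophages, mast cells and T cells.

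The genes whose profile over the 8 libraries was nearest to each called gene were found by the root mean square difference of centred log2 CPM, among 13590 genes. Nearest to Tlr13 were Plek, pleckstrin of blood cells (0.18, against a median of 1.40 over all candidates) and Ltb4r1, a leukotriene B4 receptor (0.23). Nearest to Tlr2 were Pglyrp1, a peptidoglycan recognition protein (0.17), Serpina3n (0.19) and Dnm3os (0.25), and nearest to Tlr1 the complement receptor gene C5ar1 (0.14), Gcnt1 (0.15) and C1qb (0.19). Nearest to Tlr4 were Akr1b8 (0.17), Slc18a2 (0.22) and Gpr171 (0.22). Nearest to Cd14 were Slfn4 (0.33), Il18rap (0.41) and the formyl peptide receptor gene Fpr2 (0.41). Nearest to Myd88 were Hif1a (0.10), Dck (0.11) and Mgat2 (0.11), and nearest to Tlr5 were S1pr5 (0.16), Efemp1 (0.17) and Hemk1 (0.20).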

How the data were processed

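RNA sequencing of mouse skin was analysed from 1 deposited table, with a whole-number count and an FPKM value per gene for each of 8 libraries. The submitters' processing notes name TopHat2 2.0.9, TopHat, HTSeq and the builds mm10 and hg38, without order or settings, and the annotation release and strand setting are not given in the sources used here. The authors deposited raw counts and their own FPKM values, scaled by gene length and library size. Counts were filtered with filterByExpr, scaled by TMM and tested with edgeR 4.0.16 (R 4.3.3) as a robust quasi-likelihood fit of group over all 15684 genes kept, two-sided, with Benjamini-Hochberg adjustment over all of them and a threshold of 0.05. SE is the log2 fold change over the square root of F. The procedure was tested on simulated data. Groups came from the sample titles.

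The members and gene lists were chosen with earlier results of these data known. Genes were named by this rule: all 10 members, any gene of a signalling list beginning with the 4 of lowest p, genes on which a result turns, and the 3 nearest profiles of each called member (at least 1 CPM on average, with 0.5 added before log2). For Tlr13, 1 of these profiles is not reported here. The entry Flg matched several rows and was left out. Motifs were searched in the RefSeq promoter table (GRCm38.p6), which held Tlr1, Tlr2, Tlr3, Tlr5, Tlr6, Tlr13 and Myd88 but not Cd14, Tlr4 and Tlr7. Loci are those of the deposited table, and for Tlr3 and Cd14 they differ from GENCODE M21. DESeq2 1.42.0 and limma 3.58.1 gave alternatives, and FPKM entered limma as log2 with 1 added. Replicates of a group differed by more than sampling noise. Tables and plots used Python 3.11.15, pandas 2.3.3, numpy 2.4.6 and matplotlib 3.10.9.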

Additional observations from a re-analysis of the deposited data

Results flagged for a closer look

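Among 20 sets of 4 libraries (10 genes in each group), 2 held a library set apart from the other 3 by Dixon's criterion, and chance alone sets apart about 1 set in 20. Tlr5 in NcstnΔKC replicate 1 was 3.44 CPM, below 6.56 to 6.85 CPM in the other NcstnΔKC libraries. Tlr4 in normal replicate 4 was 17.7 CPM, above 10.3 to 11.2 CPM in the other normal libraries.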

How the results depend on the processing

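The share of tested genes called higher and lower was 21.4% and 22.7% with TMM, 33.9% and 14.2% with total counts, 34.1% and 13.5% with limma on FPKM, and 2.72% and 67.2% with scaling by basal keratinocyte genes, where the median log2 fold change was 0.29, 0.20 and -1.08 in place of -0.02. With total counts and with FPKM 0 of the 10 genes were called lower, and FPKM called 38 pathway genes higher. With keratinocyte scaling 2 members were lower (Tlr3 and Tlr5), pathway genes were 10 higher and 33 lower, and markers 13 higher and 36 lower, and the calls of Tlr1 (0.56) and Myd88 (0.33) ended. Direction turned for Tlr3 with total counts (0.0068) and for Tlr6 (-0.38) and Tlr7 (-0.47) with keratinocyte scaling. Tlr2, Tlr4, Tlr13 and Cd14 stayed higher and past the threshold in all alternatives except the libraries without Xist alone.

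In the 4 libraries without Xist 0 members, 0 pathway genes and 0 markers were called in either direction, and over all genes 3 were higher and 1 lower. In the 4 with Xist 43 markers were called higher and 22 lower, beside 26.3% and 25.4% of all tested genes. With the replicate block 0 members were lower (Tlr5 at -1.13, adjusted p = 0.0536), and same-numbered libraries had correlations of deviations of -0.02, -0.04, -0.02 and 0.22, so the numbers were not taken as pairs. Leaving out 1 library gave 5 to 6 members higher and 0 to 1 lower, 20 to 31 pathway genes higher and 3 to 5 lower, and 22 to 40 markers higher and 16 to 24 lower. Summing Tlr1 with Tlr6 was chosen after seeing the data. At least 1 CPM in 4 libraries kept the same number of genes, 15684. The cause of these changes was not tested. Tlr1, Tlr6 and, in normal skin, Tlr13 rest on few reads, which limits their precision.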
